A study of Homo sapiens with 4 samples.

Results

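Secreted protease inhibitors of the SPINK, cystatin and antileukoproteinase families were followed on 4 Affymetrix arrays of human lung cancer cells. The genes were SPINK1, SPINK5, SPINK6, CST1, CST3, CST4, CST6, SLPI and PI3, chosen by family and by earlier results of the same arrays, in which the A549 values of SPINK6 and CST1 were already known. Of these 9 genes, 8 had a probe set whose platform annotation gave 1 gene symbol, and together they held 12 of 54675 probe sets, or 8 of 19775 genes. SPINK5 was not analysed here, because no probe set with 1 gene symbol carried its name. The arrays held A549, a lung adenocarcinoma line, and NCI-H358, a bronchioloalveolar carcinoma line, each stably transduced and then selected with antibiotics. In either line 1 array came from cells with the empty vector and 1 from cells expressing CHST11, a Golgi sulfotransferase of chondroitin chains, so the study had 4 groups of 1 array. Whether a culture was 1 clone or a pool of transduced cells is not given by the labels. The study asked what a raised level of CHST11 changes in each line.

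These inhibitors are small secreted proteins that block proteases outside the cell or on the way to it. SPINK proteins carry Kazal domains and hold trypsin-like serine proteases such as trypsins and kallikreins. Type 2 cystatins close the active site of papain-like cysteine proteases, which include most cathepsins. SLPI and elafin, the product of PI3, carry WAP domains and protect the airway surface from neutrophil elastase.

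A signal below is the deposited probe set intensity on a linear scale. Values under a floor of 16.1, the median of all values, were set to the floor before ratios were taken, and a gene counted as measured in a line when at least 1 of its 2 arrays reached 27.0, the 60th percentile. By that rule 5 of the inhibitor genes were measured in A549 (SPINK6, CST1, CST3, CST4, SLPI) and 4 in NCI-H358 (CST3, CST4, CST6, SLPI). SPINK1 and PI3 were measured in neither. SPINK6 and CST1 passed only through the A549 empty vector array, so a higher value there was a condition of their being counted. All comparisons are within a probe set, since signals of different probe sets are not on 1 scale. With 1 array in a group a line had no replicate and gave no p-value, and precision was limited by how few arrays there were. The error was judged from genes with several measured probe sets, whose vector ratios scattered within a gene by an SD of log2 0.16 (A549) or 0.17 (NCI-H358). This probe set SD leaves out the spread between cultures.

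The RefSeq promoter table held a window for 4 of the 9 genes (SPINK1, SPINK5, SPINK6 and CST3). The 250 bases before the start of SPINK6, which had the largest vector difference of the group, are shown beside those of CST3, whose main probe set stayed within 1.12-fold between vectors in both lines. They are printed 5′ to 3′ from GRCh38.p14, at chr5:148202528-148202777 on the plus strand and chr20:23637956-23638205 on the minus strand, and capitals mark each CG dinucleotide.
SPINK6: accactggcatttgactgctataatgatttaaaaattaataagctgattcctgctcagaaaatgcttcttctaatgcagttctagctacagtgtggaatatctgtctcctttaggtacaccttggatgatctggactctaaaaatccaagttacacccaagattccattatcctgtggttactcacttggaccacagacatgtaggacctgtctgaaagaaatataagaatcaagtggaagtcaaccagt
CST3: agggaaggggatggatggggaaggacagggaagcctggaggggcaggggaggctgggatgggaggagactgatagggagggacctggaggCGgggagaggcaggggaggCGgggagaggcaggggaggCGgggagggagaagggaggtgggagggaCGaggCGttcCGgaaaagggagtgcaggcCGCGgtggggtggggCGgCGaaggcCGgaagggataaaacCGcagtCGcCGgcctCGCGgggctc
The SPINK6 window was AT-rich, with 38.8% G and C and 0 CG dinucleotides. The CST3 window had 70.8% G and C and 16 CG dinucleotides. The table held a further SPINK6 start, whose window at chr5:148202792-148203041 had 38.4% G and C and 2 CG dinucleotides and is not shown. The median of 35116 windows of that length was 58.0% G and C and 11 CG dinucleotides, and 6.06% of windows had 0. The motif GGGCGG, searched on both strands, occurred once in the CST3 window and in 42.6% of all windows, and TATAAA, also on both strands, occurred in neither and in 10.7% of all. The arrays measured RNA and not these regions, so the letters are a description only.

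The label was checked on CHST11 itself. Its probe set 219634_at read 129 and 344 in A549 and 220.1 and 1058 in NCI-H358, empty vector first, and its other probe sets, 226368_at and 226372_at, lay between log2 -0.16 and 0.14. The epithelial markers KRT8, KRT18, KRT19, EPCAM and CDH1 were measured in both lines, 5 of 5, with EPCAM at 209.8 and 123.0 in A549. PTPRC, the pan-leukocyte marker, read 4.2 to 5.7 on the arrays, and 0 of the 3 neutrophil markers were measured. Of 3 leukocyte markers with a probe set, 2 were measured in A549, CD14 and CD3E (27.1 and 26.0), and 0 in NCI-H358. Of 5 fibroblast markers 1 was measured in each line, COL1A1, at 165 and 153 in A549 and 170 and 161 in NCI-H358. Of 3 endothelial markers 1 was measured in each line, PECAM1, at 34.6 and 36.4 in A549 and 40.0 and 37.0 in NCI-H358. The summed signal of the 3 leukocyte markers with a probe set was 55.5 with the empty vector and 68.7 with CHST11 in A549, through CD14 (24.2 and 38.4). It was 40.4 and 38.6 in NCI-H358. The ratio of 3′ to 5′ control probe sets, a sign of RNA quality, was 2.64 for GAPDH and 2.40 for ACTB on the A549 empty vector array, and 2.14 and 2.14 on the A549 CHST11 array. In NCI-H358 it was 2.14 and 2.19 for GAPDH and 2.06 and 2.32 for ACTB. This ratio, EPCAM (log2 -0.77) and CD14 (log2 0.67) moved with the vector in A549, and their part in the A549 values below was not tested.

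**Figure D1:**
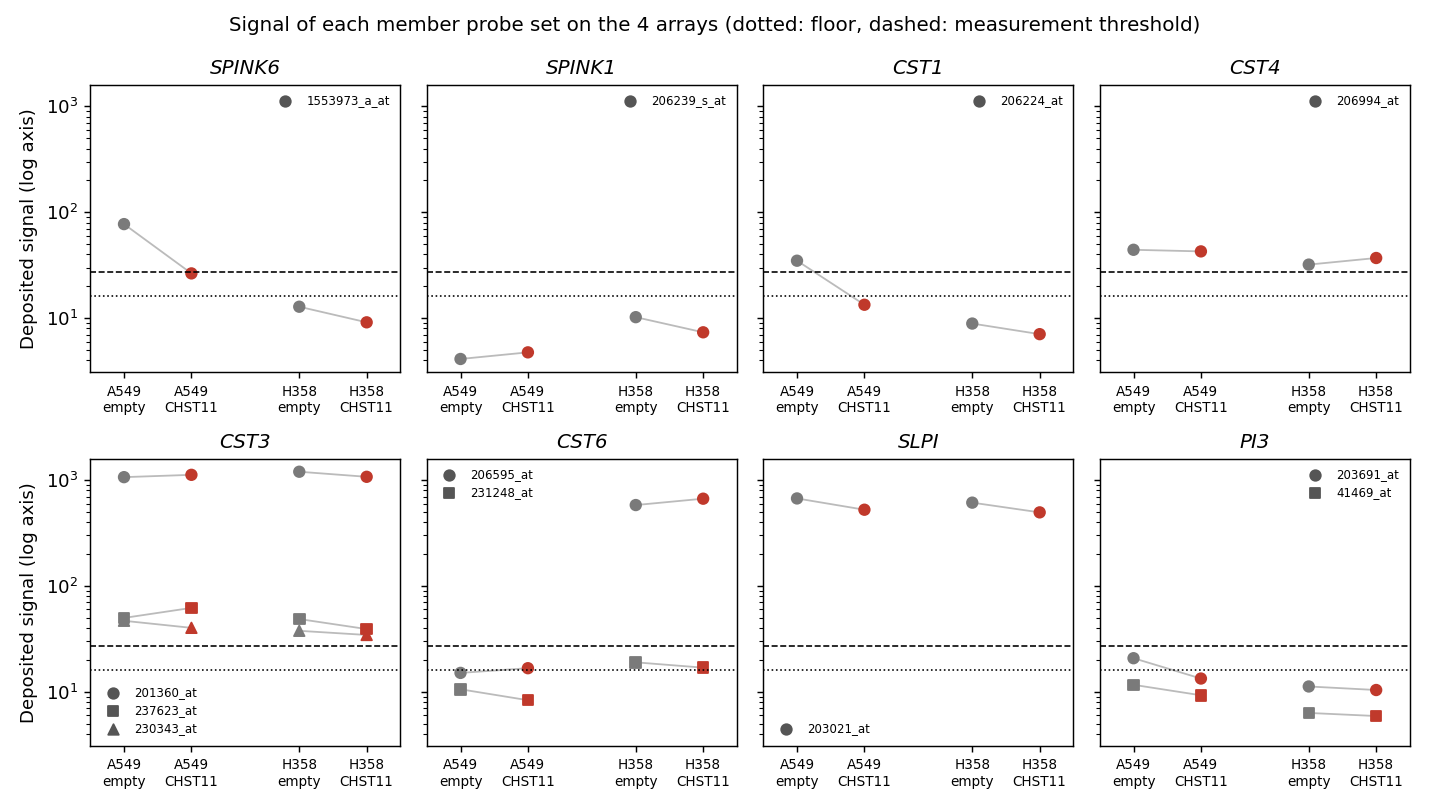
Deposited signal (log axis) of the 12 probe sets of the 8 inhibitor genes on the 4 arrays; grey points are empty vector, red points CHST11, marker shapes are probe sets of a gene, the dotted line is the floor of 16.1 and the dashed line the threshold of 27.0. SPINK6 and CST1 stood above the dashed line with the A549 empty vector alone, CST6 in NCI-H358 alone, and CST3, CST4 and SLPI on all arrays.

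In A549, SPINK6 and CST1 were the inhibitors with a large vector difference, both lower with CHST11. SPINK6, a Kazal inhibitor of kallikrein-related peptidases known from skin, read 77.3 with the empty vector and 26.4 with CHST11. In NCI-H358 its signals were 12.8 and 9.12, both under the floor. The A549 empty vector array was therefore the high one, and the A549 CHST11 array lay just under the measurement threshold. The A549 ratio was log2 -1.55, or 2.92-fold lower, and SPINK6 ranked 2 from the lowest of 11448 measured genes.

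CST1, cystatin SN, a cysteine protease inhibitor of saliva and other secretions, followed the same order of arrays. Its signal was 34.9 with the A549 empty vector, 13.4 with A549 CHST11, and 8.89 and 7.06 in NCI-H358. Only the A549 empty vector array lay above the floor. Against the floor of 16.1 the A549 value with CHST11 was at least 2.16-fold lower (log2 -1.11), and against the measurement threshold of 27.0 at least 1.29-fold. Each gene had 1 probe set, so neither difference could be set against another probe set of its gene. These A549 values were among those known when the genes were chosen, and are given as a description with no test.

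Of the 5 inhibitor genes measured in A549, 2 were at least 1.5-fold apart, against 1.21% of all measured genes in either direction. The same 2 were at least 2-fold lower, against 0.0786%. Both counts rest on the contrast that was known beforehand, and nothing is read from them. SPINK6 and CST1 lay in the dimmest 25% of measured A549 genes, where log2 ratios had an SD of 0.25 and 2.97% of genes were at least 1.5-fold apart. With the measurement threshold at the 75th percentile neither gene was measured, and 0 inhibitors were 1.5-fold apart.

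**Figure D2:**
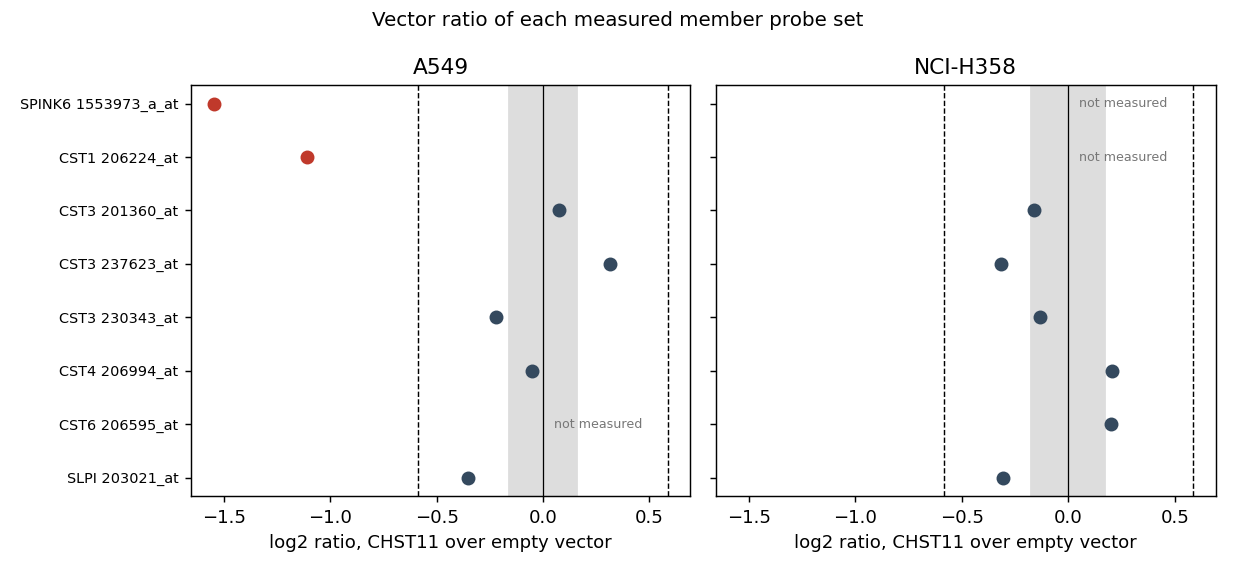
Log2 ratio of CHST11 over empty vector for each measured probe set of the inhibitors in A549 (left) and NCI-H358 (right); the grey band is 1 SD between probe sets of a gene, dashed lines are 1.5-fold, and red points lie beyond them. SPINK6 at -1.55 and CST1 at -1.11 are the red points; SLPI lies left of the band in both lines.

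The genes whose signals ran most like these were found by the Euclidean distance of mean-centred log2 signals over the 4 arrays. Nearest to SPINK6 were GDA, guanine deaminase (distance 0.31), CA2, a carbonic anhydrase (0.35), and SOX17, an endoderm transcription factor (0.59). Their A549 signals were 59.9 and 25.4 for GDA, 65.6 and 31.6 for CA2, and 51.5 and 30.5 for SOX17, empty vector first. All 3 were under the floor on both NCI-H358 arrays, as SPINK6 was. Nearest to CST1 were TFF1, a secreted trefoil peptide (distance 0.22), HERC2, a ubiquitin ligase (0.25), and SETBP1, a nuclear protein (0.31). TFF1 read 36.4 and 20.3 in A549 and 16.8 and 18 in NCI-H358. HERC2 read 277.8 and 163.8 in A549 and 140.3 and 148.0 in NCI-H358, highest on the A549 empty vector array. SETBP1 read 34.4 and 20.6 in A549. A distance over 4 arrays orders genes by the shape of their signals and carries no p-value.

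The other cystatins of the group showed no vector difference of that size. CST4, cystatin S, a salivary relative of CST1 and its neighbour in the RefSeq gene order of GRCh38.p14, read 44.2 and 42.7 in A549 and 32.0 and 37.0 in NCI-H358. Its log2 ratios were -0.05 and 0.21. CST2, the neighbour of CST1 on the other side, was measured in neither line, with signals of 11.1 to 17.9. CST1, CST2 and CST4 are close copies of each other, and the probe sequences were not used here, so how far their probe sets read each other's RNA was not tested. In A549 the ratio of CST4 was within the probe set SD, whereas the CST1 value with CHST11 was under the floor.

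CST3, cystatin C, the widely secreted cystatin of body fluids, had 3 measured probe sets. Probe set 201360_at read 1067 and 1122 in A549 and 1200.3 and 1075 in NCI-H358, with log2 ratios of 0.07 and -0.16. Both lay inside the probe set SD of their line. Probe set 237623_at read 49.9 and 62.1 in A549 and 48.7 and 39.2 in NCI-H358 (log2 0.32 and -0.31), and 230343_at read 46.9 and 40.2 in A549 and 37.7 and 34.5 in NCI-H358 (log2 -0.22 and -0.13). In A549 the 3 probe sets did not share a direction. In NCI-H358 all 3 lay below 0, between -0.31 and -0.13.

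CST6, cystatin E/M, an inhibitor of legumain and cathepsins in epithelia, was read by 206595_at at 15.1 and 16.7 in A549 and at 582 and 668 in NCI-H358. The NCI-H358 arrays were both high, and the A549 arrays were both under the threshold. Within NCI-H358 the vector ratio was log2 0.20, just beyond the probe set SD of 0.17. The other CST6 probe set, 231248_at, was dim on all arrays, with signals of 10.6, 8.34, 19.0 and 16.9 in the order of the groups. It was measured in neither line, so the vector ratio of CST6 rests on 206595_at.

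SLPI, the secretory leukocyte protease inhibitor of airway mucus, was bright on all arrays and lower with CHST11 in both lines. Its signal was 671.5 and 525.3 in A549 and 612.8 and 495.9 in NCI-H358. Of the 10572 genes measured in both lines, 21.5% were lower with CHST11 in both. The log2 ratios were -0.35 and -0.31, or 21.8% and 19.1% lower, each beyond the probe set SD. The brightest 25% of genes in each line, which included SLPI, scattered in log2 ratio by an SD of 0.11 (A549) and 0.14 (NCI-H358). SLPI lay near the lower end of that range, and the next 25%, with mean signals up to 486 and 490, had SDs of 0.15 and 0.16. Within a line SLPI ranked 334 from the lowest of 11448 measured genes in A549 and 394 of 11395 in NCI-H358. Ordered by the ratio of the line in which a gene was less lowered, SLPI ranked 19 from the lowest of 10572 genes measured in both lines. In that order CST3 ranked 4816 and CST4 8542. The order holds the A549 contrast, which was known when the genes were chosen, so the ranks are a description. SLPI had 1 probe set.

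PI3, elafin, read 20.8 and 13.4 in A549 and 11.2 and 10.4 in NCI-H358 by 203691_at, and 11.7, 9.29, 6.32 and 5.91 by 41469_at. Every value was under the measurement threshold, and its highest value was on the A549 empty vector array with either probe set. SPINK1, the trypsin inhibitor first known from pancreatic juice, read 4.11, 4.75, 10.2 and 7.34, all under the floor. No ratio is given for either gene. PI3 was above the floor on 1 array and SPINK1 on 0, and both were under the threshold throughout, which is not proof of absence.

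**Figure D3:**
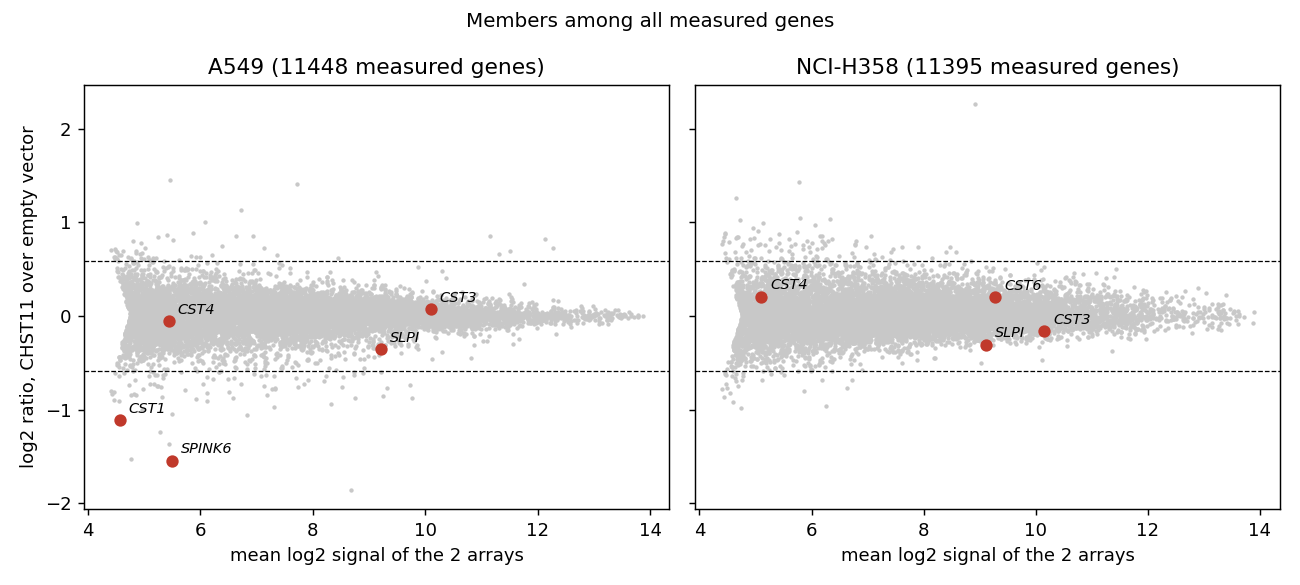
Log2 ratio of CHST11 over empty vector against the mean log2 signal of the 2 arrays, for 11448 genes measured in A549 (left) and 11395 in NCI-H358 (right); grey points are genes, red points the inhibitors, dashed lines 1.5-fold. SPINK6 and CST1 lie below most of the dim genes around them in A549, and SLPI near the lower edge of the bright genes in both lines.

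In NCI-H358, 0 of the 4 measured inhibitor genes were at least 1.5-fold apart between vectors, against 1.17% of all measured genes, so a count of 0 among 4 genes is near the background. By the probe set that represents each gene, SLPI had the largest difference there (-0.31), and the CST3 probe set 237623_at had as large a one. Whether the vector response of SPINK6 or CST1 differed between the lines could not be judged, since both genes were under the floor in NCI-H358, and with 1 array a group the difference between lines in response had no test.

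For the difference shared by both lines, limma was fitted on 12271 genes with terms for cell line and vector. It called 0 genes at a Benjamini-Hochberg adjusted p of 0.05, a share of 0%, with 374 genes at an unadjusted p under 0.05 (0 and 330 with an intensity trend in eBayes), so 0 of the 6 inhibitor genes tested were called. SLPI had a fitted log2 difference of -0.33 (SE 0.088), lower in 2 of 2 lines, with a limma adjusted p of 1. It ranked 104 from the lowest. The fit holds the A549 contrast, which was known when the genes were chosen, so these values describe the genes and do not test them.

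The cell line comparison asked which inhibitors differ between A549 and NCI-H358 whatever the vector. CST6 had the largest difference of the group, at least 23.1-fold higher in NCI-H358, with the A549 arrays raised to the threshold of 27.0. Its mean log2 signal, floored, was 4.04 in A549 and 9.28 in NCI-H358. CST6 passed the filter through NCI-H358 alone, where it was high, so the difference is given with no test. With the median of both CST6 probe sets in place of 206595_at, the fitted log2 difference was 2.70 instead of 5.24, and 231248_at itself was not measured in either line. CST3 (fitted log2 0.05, SE 0.10, limma adjusted p 0.669) and SLPI (-0.11, SE 0.088, limma adjusted p 0.332) were not called. CST4 lay at -0.34 (SE 0.11), with a limma adjusted p of 0.0447 that became 0.0695 with an intensity trend and 0.0536 with a floor at the 25th percentile. This call was at the threshold. For SPINK6 and CST1, known beforehand to be under the floor in NCI-H358, the fitted log2 differences of -1.49 and -0.56 are given with no test. They depend on the floor, and were -2.06 and -1.45 with the floor at the 25th percentile or without one.

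This fit called 64.5% of all genes tested for the line, 4159 higher and 3750 lower in NCI-H358. Of the 3 inhibitor genes measured in both lines, CST3, CST4 and SLPI, it called 1, CST4. SPINK6, CST1 and CST6 passed the filter through the line in which they were high, so no share over all 6 tested genes is read against that background. The 2 arrays of a line carried different vectors, and nothing in the labels makes them separate cultures of 1 condition. The error behind these p-values is how far the vector ratio of a gene differed between the lines, moderated over all genes. They do not measure the spread between cultures of 1 condition.

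**Figure D4:**
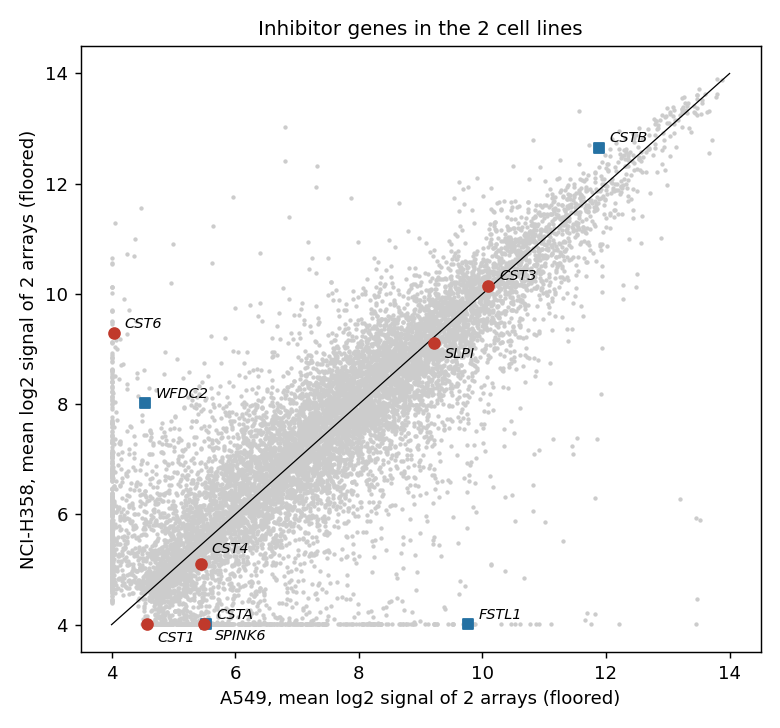
Mean log2 signal, floored, in A549 (x axis) and NCI-H358 (y axis) for all genes measured in a line (grey), the inhibitors (red circles) and other genes of the same families (blue squares). The line marks equal signal. CST6 and WFDC2 lie above it, FSTL1, CSTA and SPINK6 at the NCI-H358 floor.

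Other genes of the same families were taken from lists. Of 13 further genes with Kazal or follistatin-type domains, 10 had a probe set and 5 were measured in A549, and the 4 named SPINK were measured in neither line. The median log2 vector ratio was 0.04 in A549, against 0.01 over all measured genes, with 0 genes at least 1.5-fold apart. Between lines, 0 of the 5 genes tested were called higher in NCI-H358 and 3 lower, FSTL1, SPOCK1 and RECK. FSTL1 and SPOCK1 passed the filter through A549 alone, where they were high. Nothing is therefore read from this count beside the 64.5% of all genes called. FSTL1, a secreted follistatin-like glycoprotein, read 877.4 and 859.4 in A549 and 10.9 and 9.18 in NCI-H358.

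Of 14 further cystatins, 12 were measured in neither line. CSTB, the cytosolic stefin B, read 3832 and 3721 in A549 and 6558 and 6318 in NCI-H358 (fitted line difference log2 0.77, limma adjusted p 0.00182). CSTA, stefin A, read 51.0 and 41.4 in A549 and 6.95 and 10.5 in NCI-H358, with an A549 vector ratio of -0.30. Among 13 further WAP genes, 11 had a probe set and 3 were measured. WFDC2, an epithelial secretory protein, read 21.1 and 25.6 in A549 and 274.9 and 244.6 in NCI-H358 (fitted line difference log2 3.48). It passed the filter through NCI-H358 alone, with both A549 signals under the threshold, so that difference is given with no test. WFDC12 had a vector ratio of 0.48 and WFDC3 of -0.42 in NCI-H358, both under 1.5-fold.

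Lists of proteases, many of them of the kinds that these inhibitors hold, were then set beside them. Of 14 cathepsins and legumain, 12 were measured in A549 and 13 in NCI-H358, with medians of 0.04 and -0.05. In either line 0 genes were at least 1.5-fold apart. CTSA, a serine carboxypeptidase, and CTSD, an aspartic protease, are not targets of cystatins, and the counts and medians include both. CTSC, dipeptidyl peptidase I, had the lowest A549 ratio, -0.19, and read 979 and 858 in A549 and 2893 and 3002 in NCI-H358. CTSS, a cathepsin of antigen presentation, had the lowest NCI-H358 ratio, -0.45, at 345 and 254. CTSF had the highest A549 ratio, 0.22, and CTSV the highest in NCI-H358, 0.19. Between lines, 5 of 13 were called higher and 6 lower in NCI-H358, beside 4159 higher and 3750 lower of all 12271 genes (64.5%). CTSA and CTSD were among those higher, as was CTSO, which passed the filter through NCI-H358 alone, where it was high.

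Of 20 kallikreins, trypsins and related serine proteases, of which only some are targets of SPINK proteins, 7 were measured in A549 and 6 in NCI-H358. The medians were 0.07 and 0.16, and they include PRSS22 and, in NCI-H358, PRSS8, which are neither kallikreins nor trypsins. PRSS2, a trypsinogen, was the 1 gene at least 1.5-fold apart, lower in A549 with CHST11, at 62.1 and 41.2 (log2 -0.59). It read 15.2 and 23.0 in NCI-H358, under the threshold. Trypsinogen genes are close copies, and its probe set is of the kind that may read several of them, so the gene is uncertain. With median-centred arrays it was under 1.5-fold, and KLK6 in NCI-H358 was over it (log2 0.59). KLK6, a kallikrein-related peptidase, read 137 and 201 in NCI-H358 (log2 0.55) and 17.3 and 11.5 in A549. KLK3 had the highest A549 ratio, 0.32, and PRSS22 the lowest in NCI-H358, -0.29. Between lines, 5 of 10 were called higher and 3 lower in NCI-H358. KLK6, KLK10 and PRSS8, called higher, passed the filter through NCI-H358 alone, and KLK14, PRSS2 and PRSS3, called lower, through A549 alone. Each was high in that line, so nothing is read from these counts beside the 64.5% of all genes called.

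Of 10 leukocyte proteins of the serine protease family, of which only some are targets of SLPI or elafin, 1 was measured, TPSAB1, a mast cell tryptase, at 26.9 to 31.8. ELANE, neutrophil elastase, read 5.84 to 6.88 on the 4 arrays. Of 12 membrane serine proteases, 3 were measured in A549 and 6 in NCI-H358, with medians of -0.07 and -0.04. TMPRSS4 read 299 and 412 in NCI-H358 (log2 0.46), and TMPRSS2 had the lowest ratio in both lines, -0.36 and -0.19.

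Among 32 serpins, Kunitz inhibitors, TIMPs and related inhibitors, 14 were measured in A549 and 13 in NCI-H358. The medians were -0.02 and -0.01, and 0 were at least 1.5-fold apart. The lowest in NCI-H358 was TFPI2, a Kunitz inhibitor of the matrix, at 619 and 435 (log2 -0.51). In A549 it read 4056 and 3815. ITIH2 had the highest ratio in A549 (0.34), SERPINB8 the lowest (-0.24), and SERPINI1 the highest in NCI-H358 (0.31). SPINT2, a Kunitz inhibitor of membrane serine proteases, had ratios of 0.10 and -0.01. No list median was tested.

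**Figure D5:**
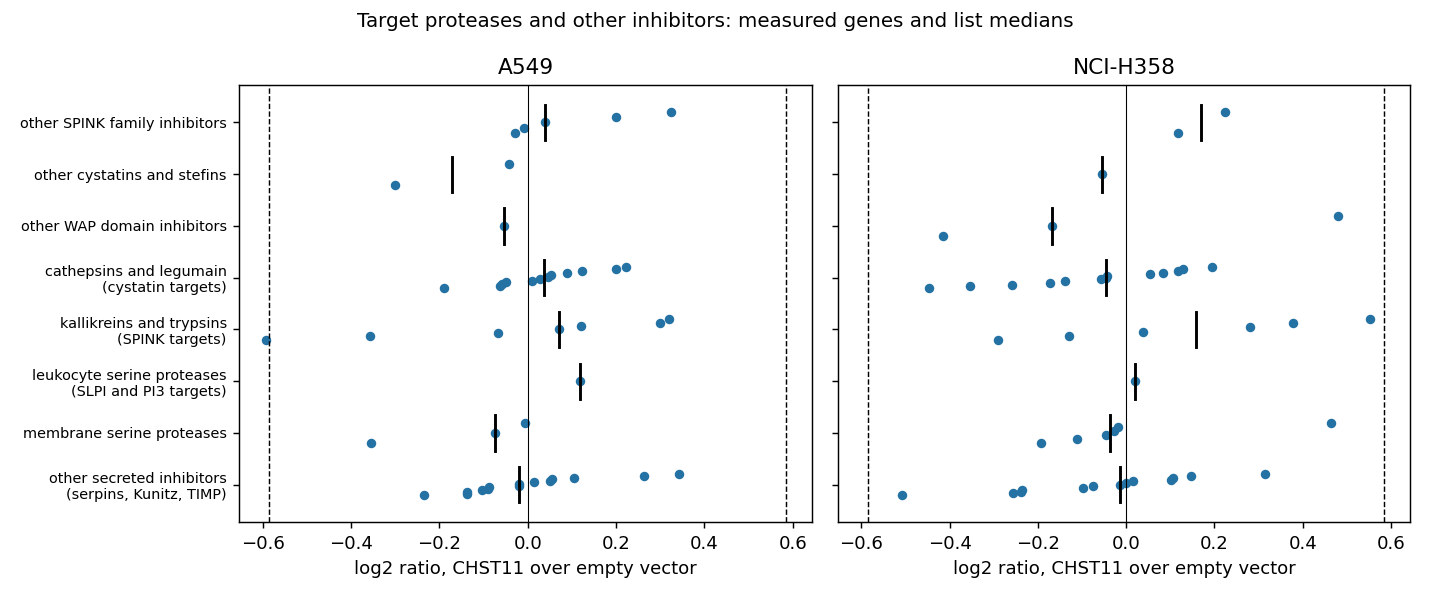
Log2 ratio of CHST11 over empty vector for the measured genes of 8 lists of proteases, inhibitors and related genes, in A549 (left) and NCI-H358 (right). Points are genes, thick bars list medians, dashed lines 1.5-fold. PRSS2 at -0.59 in A549 is the 1 point beyond a dashed line.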

How the data were processed

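RNA of 4 stably transduced cultures was measured on Affymetrix 1-colour arrays. The deposited values are probe set intensities on a linear scale, made with MAS5 per the submitters' processing notes; no source used here gives its version, its scaling or any detection call. Depth has no counterpart on arrays. Of 54675 probe sets, 41091 had 1 gene symbol, 1801 several, 11721 none, and 62 were controls; 99.9% of the single-symbol ones matched RefSeq by Entrez ID. A gene was represented by its brightest single-symbol probe set. Signals were floored at 16.1 and log2 was taken. The vector and cell line terms were fitted with limma 3.58.1 (lmFit, eBayes, 1 residual degree of freedom, prior 3.54, R 4.3.3) on 12271 genes, with Benjamini-Hochberg adjustment over the table, and checked on simulated data. Plots were made with Python 3.11.15, pandas 2.3.3 and matplotlib 3.10.9.

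The inhibitor genes, lists and tests were chosen with earlier results of these arrays known. Genes named are all inhibitors, CHST11, the genes with the highest and lowest ratio of each list per line and the highest mean signal over the arrays, and the 3 genes nearest to each inhibitor that differed 1.5-fold. Alternatives were quantile, median and cyclic loess normalization, other floors and thresholds, the median of probe sets, an eBayes trend and all probe sets as features.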

Additional observations from a re-analysis of the deposited data

How the results depend on the processing

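Of 187 recomputed values, 169 kept their side of the threshold or moved little. The direction changed in 1, the uncalled line difference of CST3, from 0.05 to -0.35 with the median of probe sets (adjusted p 0.115). The count of inhibitors at least 1.5-fold apart in A549 was 2 under 7 of 8 alternatives and 0 with the measurement threshold at the 75th percentile, which SPINK6 and CST1 do not reach. In NCI-H358 it was 0 under all 8. The log2 ratio of SPINK6 ran from -1.57 to -1.53 over 7 alternatives. That of CST1 ran from -1.38, with a lower floor or none, to -1.09. SLPI ran from -0.37 to -0.33 in A549 and from -0.35 to -0.27 in NCI-H358 over 8, and its shared difference was not called under any of 10 (adjusted p 0.595 to 1). With the median of probe sets CST3 had 0.32 in A549 and CST6 0.02 in NCI-H358. The count called between lines was 1 instead of 3 with the 75th percentile threshold, where fewer genes are measured, and 1 with no threshold, CST6 in both. The main count of 3 took in SPINK6 and CST6, which passed the filter through 1 line, so nothing is read from it. With the floor at the 25th percentile or none, the fitted line difference of CST1 was -1.45, and CST4 was not called. CST1 passed the filter through the A549 empty vector array alone, so its difference is given with no test. The CST6 difference, given with no test, was log2 2.70 with the median of probe sets and 5.21 to 5.29 otherwise. The call of CST4 was lost under 4 of 9 (limma adjusted p 0.0318 to 0.296). Of the list genes, PRSS2 in A549 was not measured with the 75th percentile threshold and was under 1.5-fold with median centring, where KLK6 in NCI-H358 was over it (count 1 instead of 0). The cause of these shifts was not tested. Each gene rests on 1 array a group, and signals near the floor limit what can be said of SPINK1, PI3 and CST1.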
